A study of Homo sapiens and Mus musculus with 20 samples.

Results

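IRF4, PRDM1, XBP1 and POU2AF1 encode the transcription factors that make and maintain a plasma cell, and their loci were examined in chromatin immunoprecipitation data from myeloma cell lines. Each locus was taken as the gene body and 50 kb on either side in GRCh38, and every listed region that overlapped it by at least 1 bp was a member. There were 674 such regions among 805893 in 16 human libraries, 179 at IRF4, 153 at PRDM1, 132 at XBP1 and 210 at POU2AF1. Of these, 57 lay within 2.5 kb of a transcription start, or of either end of POU2AF1, and are called promoter regions, and 617 are called distal.

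ARP1 is a human multiple myeloma line, and it was profiled in 3 genotypes of the histone demethylase KDM6A. These are wild type (WT), knock out (KO) and JmjD-dead, a form with a disabled demethylase domain whose titles give the allele as H1146E. Input DNA, H3K27ac and H3K27me3 came from all 3 genotypes, H3K4me1 from WT and from a KO sample titled E4, and KDM6A from WT and KO. An HA antibody was used on an ARP1 line labelled wild type with no tag in its title, and on an HA-tagged line whose genotype label reads knock out. The labels do not say whether the tagged protein was put back into KO cells, or how many clones each genotype represents. KDM6A was also precipitated from KARPAS, labelled as wild type and as multiple myeloma. Each group held 1 library, so nothing below can be set against a spread between replicates and no p-value is given. The libraries came from bulk cultures, in which fewer marked cells and less mark per cell cannot be told apart.

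The 13 immunoprecipitation libraries kept between 5026016 and 37389280 tags or fragments, and the 3 inputs between 222942 and 724630. Their lists held 11865 to 95729 regions after immunoprecipitation and 2747 to 11190 in the inputs. Of the 664 member regions from immunoprecipitation libraries, 32 overlapped a region of any input. Region lists do not show whether KDM6A protein was lost. Of the 90964 KDM6A regions of WT 63118 (69.4%) had no KO region. The same share was 75.3% for H3K4me1, 74.8% for H3K27me3 and 30.1% for H3K27ac. Promoters of 17 of 18 genes that plasma cells use for secretion or carry on their surface held an H3K27ac region in ARP1 WT, from SDC1 at rank 168 to DERL3 at rank 12084, and CD27 held none. Over all genes the share was 60.6%. Of 14 markers of other blood and tissue types 3 did, CD3E, PECAM1 and COL1A1, at ranks 21197, 38554 and 51965.

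IRF4 starts the plasma cell programme and is needed for the survival of myeloma cells. PRDM1 encodes BLIMP-1, a repressor that shuts down B cell genes, and XBP1, whose mRNA is spliced during stress of the endoplasmic reticulum, expands the secretory apparatus. POU2AF1 encodes OCA-B, a coactivator that binds the octamer factors OCT1 and OCT2. H3K27ac marks active promoters and enhancers, H3K4me1 marks enhancers, and H3K27me3 is the polycomb mark that KDM6A removes. KDM6A also belongs to the MLL3 and MLL4 complexes, which deposit H3K4me1.

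IRF4 lies on chromosome 6 at 391752 to 411443, PRDM1 on chromosome 6 at 105992690 to 106109938, XBP1 on chromosome 22 at 28794560 to 28800569 and POU2AF1 on chromosome 11 at 111352255 to 111379275. Reference promoters were matched for 3 of the 4 genes. The 250 bases that precede the start are shown for the first start of each and for the second start of PRDM1, since the H3K27ac regions below cover all of them, and capitals mark a match to a searched motif. The window of a second XBP1 start lies inside the gene, past the first start. It is not printed, held no match and had 74.4% G and C. They come from RefSeq, GRCh38.p14, at chr6:391502-391751 (plus strand) for IRF4, chr6:106086086-106086335 and chr6:106098691-106098940 (plus strand) for the PRDM1 starts, and chr22:28800570-28800819 (minus strand) for XBP1.
IRF4: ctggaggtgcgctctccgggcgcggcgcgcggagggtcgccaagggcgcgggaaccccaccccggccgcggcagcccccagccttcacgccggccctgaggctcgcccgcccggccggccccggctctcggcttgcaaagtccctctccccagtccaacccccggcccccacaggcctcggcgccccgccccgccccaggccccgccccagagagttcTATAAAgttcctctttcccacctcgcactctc
PRDM1, first start: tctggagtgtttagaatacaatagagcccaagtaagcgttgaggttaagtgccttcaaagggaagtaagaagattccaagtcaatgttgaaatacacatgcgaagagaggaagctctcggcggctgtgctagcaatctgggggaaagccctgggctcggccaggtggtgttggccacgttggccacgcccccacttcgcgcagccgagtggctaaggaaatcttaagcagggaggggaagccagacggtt
PRDM1, second start: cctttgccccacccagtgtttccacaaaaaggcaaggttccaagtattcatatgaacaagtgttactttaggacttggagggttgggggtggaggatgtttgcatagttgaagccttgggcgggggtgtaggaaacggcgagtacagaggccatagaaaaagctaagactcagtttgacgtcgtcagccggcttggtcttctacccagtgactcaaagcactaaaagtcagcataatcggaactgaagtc
XBP1: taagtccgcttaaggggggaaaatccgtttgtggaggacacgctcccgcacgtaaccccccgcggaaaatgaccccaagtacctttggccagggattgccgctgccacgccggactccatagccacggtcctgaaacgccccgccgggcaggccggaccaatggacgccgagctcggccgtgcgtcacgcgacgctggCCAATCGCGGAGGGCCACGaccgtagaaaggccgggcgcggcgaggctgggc

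The capitals in XBP1 match the ER stress element, through which factors of the unfolded protein response act, 52 bases before the start on the forward strand. That match was present in 26 of 35097 promoter windows of the same length, or 0.0741%. The capitals in IRF4 are a TATAAA match, 32 bases before the start, which 10.7% of the windows hold. Both strands were also searched for the octamer ATTTGCAT (in 1.63% of windows), the unfolded protein response element TGACGTGG (0.613%), the interferon response type motif (3.02%) and the composite motif of ETS factors and IRF4 (2.41%). Those 4 had no match in the windows shown, the 2 matches did not overlap, and neither PRDM1 window held any of the 6 motifs. G and C made up 76.0% of the bases of the IRF4 window, 67.6% of the XBP1 window shown, and 53.6% and 48.8% of the PRDM1 windows, against a median of 58.0%.

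H3K27ac covered the promoters of all 4 genes in all 3 ARP1 genotypes. Across 19970 protein-coding genes, promoter regions were listed for 60.6% (WT), 62.4% (KO) and 60.5% (JmjD-dead). Regions were ranked within each list by the authors' −log10 q, a score that grows with enrichment and with depth, and rank 1 is the highest. For PRDM1 the promoter region had ranks 68, 186 and 100 in WT, KO and JmjD-dead, with −log10 q of 904, 518 and 753. For XBP1 the ranks were 158, 272 and 234, with −log10 q of 689, 461 and 563. PRDM1 and XBP1 therefore lay in the top 0.4 percent of each list. The IRF4 promoter region had ranks 1353, 2974 and 3057, with −log10 q of 327, 186 and 210. POU2AF1 stood lowest, at ranks 12393, 13970 and 12891 with −log10 q of 61.9, 41.6 and 57.8. No transcription start was used for POU2AF1, so both ends of its gene body were searched, and every H3K27ac promoter region lay at the end coordinate.

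The best promoter region of all 4 genes had a higher rank number in KO than in WT, as did 34.5% of 11891 genes with a region in both and 37.7% of those in the top 20% of the WT list. In JmjD-dead it did so for all 4 genes too, against 46.3% of 11788 genes and 46.9% of the top ones. The lists held 69127 (WT), 76242 (KO) and 74063 (JmjD-dead) regions from 30772474, 25568819 and 31171803 fragments, and ranks from lists of unequal length do not show a change. By share of the list the KO place was lower for 4 of 4 genes (24.0% of all) and the JmjD-dead place for 3 of 4 (37.4% of all), POU2AF1 being the exception.

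**Figure D1:**
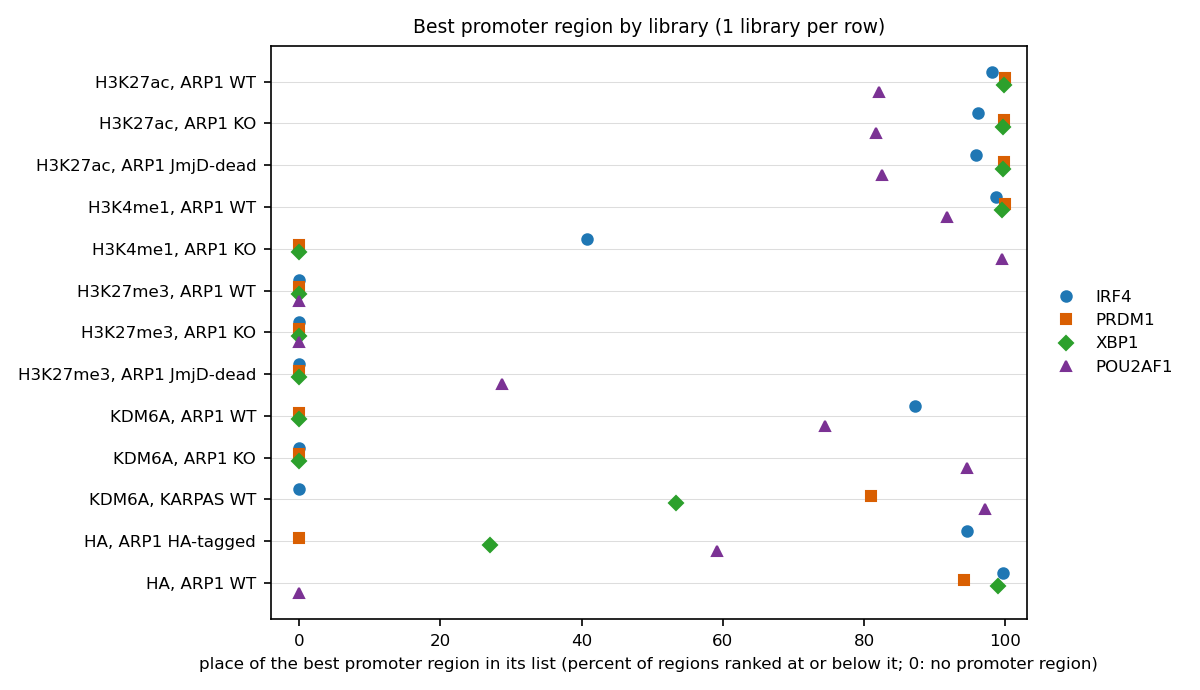
Place of the best promoter region of each gene (symbol and colour) in the list of each of 13 immunoprecipitation libraries, as the percent of regions ranked at or below it; 0 means no promoter region, and symbols are offset vertically for legibility. PRDM1 and XBP1 sit at the top of the 3 H3K27ac lists and of the WT H3K4me1 list, and at 0 in the KO H3K4me1 list.

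At IRF4 the promoter H3K27ac region spanned 15932, 17854 and 15642 bp in WT, KO and JmjD-dead, and it was the 80th, 63rd and 82nd longest region of its list. In WT it ran from -3.8 to 12.1 kb, where distances are counted from the transcription start and negative values lie upstream. A KO input region of 171 bp lay under it at 9.7 to 9.9 kb. Beyond the promoter there were 19 distal H3K27ac regions in WT, 10 in KO and 16 in the JmjD-dead line. They measured 138 to 1775 bp, and none ranked better than 18869. The upstream group at -42.5 to -38.5 kb, near the end of the phosphatase gene DUSP22, held 3 WT regions, 1 JmjD-dead region and no KO region. An intergenic element near -20 kb was listed by 13 of the 16 libraries, the KO input included.

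That element, on chromosome 6 at 371341 to 372121, was listed for H3K27ac and H3K27me3, which modify the same residue. Its H3K27me3 region was the best at IRF4 in every genotype, at rank 368 in WT, 900 in KO and 2251 in the JmjD-dead line. Its H3K27ac ranks were 25887, 19943 and 21917. HA precipitated it from the untagged line at rank 1791 and from the tagged line at rank 16386, and KDM6A precipitated it from WT at rank 59462. H3K4me1 listed it at rank 20820 in WT and 1547 in KO, where it was the best region of the IRF4 window. The KO input region there had rank 9417 of 11190, and the part of that background in the other lists was not tested.

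Both the KDM6A and the HA antibody gave regions at IRF4. KDM6A listed 8 regions in WT and none in KO, and HA listed 11 in the tagged line and 22 in the untagged line. The best KDM6A region lay just upstream of the start, at -2.1 to -1.0 kb, with rank 11669 and −log10 q of 14.1. HA in the tagged line covered -2.4 to -0.5 kb there, at rank 2920 with −log10 q of 31.8, and the untagged line had no region at that element. At the start itself the HA region of the untagged line, -0.3 to 1.3 kb, had rank 268 of 78725, and that of the tagged line rank 10637 of 54338. Within the gene body, both antibodies listed an element at 7.9 to 8.6 kb (HA rank 6741 in the tagged line, KDM6A rank 18602). HA in the untagged line also listed it, at rank 63705.

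H3K4me1 covered the IRF4 promoter with a 12327-bp region at rank 1280 in WT. In KO the promoter held 1 region of 289 bp at rank 47827.

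PRDM1 had the longest H3K27ac regions of the 4 loci. The promoter region was 40228, 37127 and 37342 bp long in WT, KO and JmjD-dead, the 6th, 10th and 5th longest of their lists, and it covered both starts. Its summit lay 28.7 kb from the first start in all 3 genotypes, past the end of the gene. A second block followed downstream. In WT it was split into a 25599-bp region at 41.4 to 67.0 kb, rank 19, and a 36315-bp region at 67.2 to 103.6 kb, rank 15. In KO a single region of 63251 bp ran from 41.0 to 104.3 kb at rank 31, the longest of all 76242 regions in that list. In JmjD-dead a 13403-bp region at 37.5 to 50.9 kb had rank 4488 and a 37139-bp region at 51.0 to 88.1 kb had rank 20. Listed regions of the block reached the neighbouring gene ATG5, which encodes an autophagy protein, in WT and KO. In JmjD-dead the last member region ended at 88.1 kb. Regions that began beyond the 50 kb limit were not members, so acetylation past 88.1 kb in JmjD-dead was not examined. How a caller divides 1 stretch into regions sets their number and length, so the split is not a measured difference.

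Upstream, near the start coordinate of the longest PRDM1 annotation (-93.6 kb), WT listed regions of 592 and 355 bp, KO a single region of 369 bp and JmjD-dead a single region of 965 bp. The 592-bp region at -94.4 to -93.8 kb, rank 22739, was the only one of 12 WT regions with no KO region.

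The best ranked KDM6A site of ARP1 at any of the 4 loci lay in the PRDM1 downstream block, on chromosome 6 at 106141198 to 106142551, or 54.9 to 56.2 kb. HA ranked it 392 in the tagged line with −log10 q of 85.8, KDM6A 834 in WT with 55.1, and KDM6A 1451 in KARPAS with 85.2. Both background lists also held a region there, HA in the untagged line at rank 12623 and KDM6A in KO at rank 30657. Beside the acetylation summit, at 27.9 to 28.5 kb, KDM6A (rank 7715) and HA (rank 11798) shared a site that neither background list held. No KDM6A region lay at a PRDM1 start in ARP1, whereas the untagged HA list had 3 regions there, the best at rank 4617.

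H3K4me1 at PRDM1 followed the acetylation in WT, with a 34002-bp promoter region at rank 100, a 13434-bp region at 53.4 to 66.9 kb at rank 45 and a 16273-bp region at 71.9 to 88.1 kb at rank 40. All 34 WT regions lay on WT H3K27ac. KO listed 7 regions of 121 to 228 bp, none of them at a start.

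**Figure D2:**
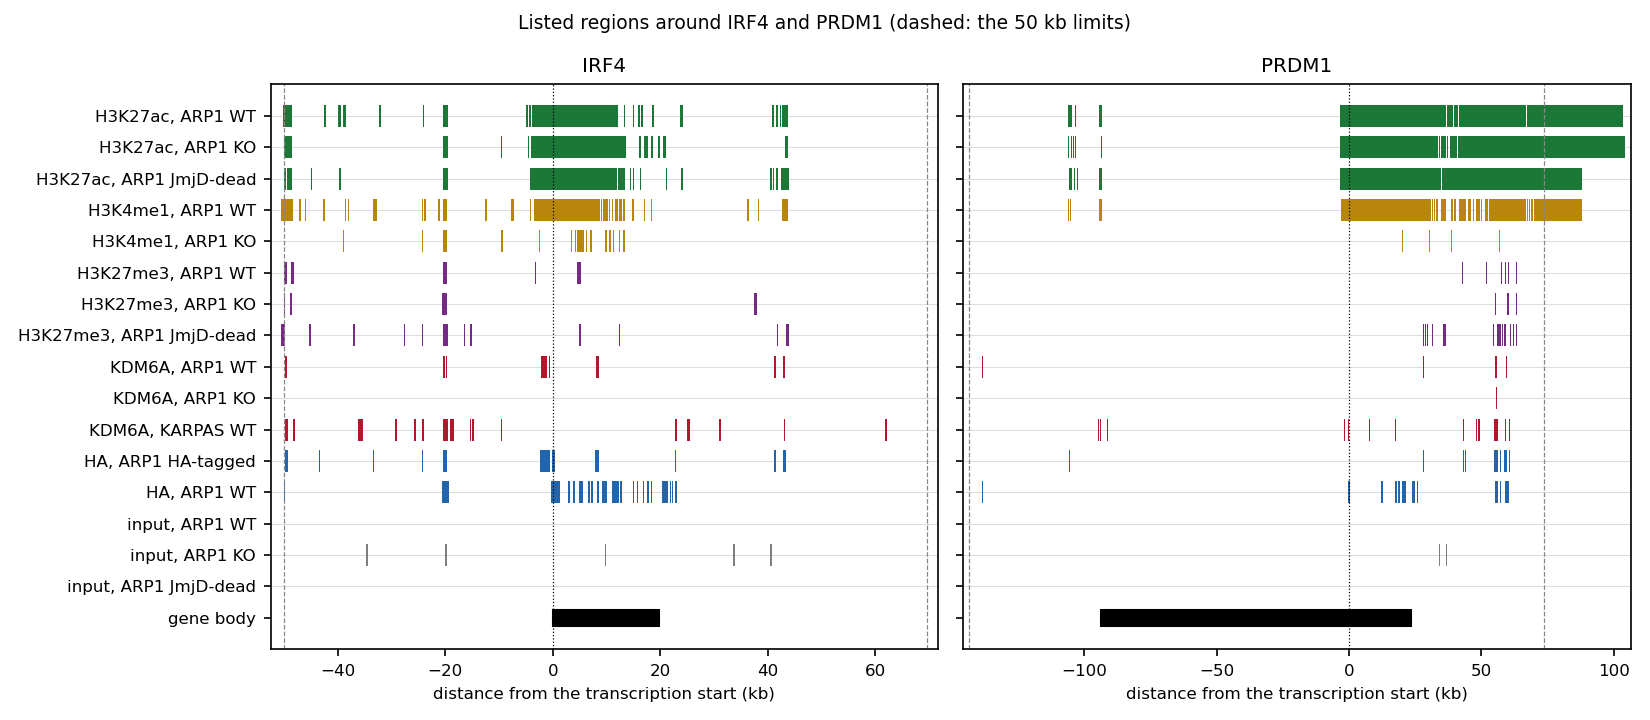
Regions of each of the 16 libraries (rows, coloured by antibody) around IRF4 and PRDM1 by distance from the transcription start in kb, with the gene body in black and dashed lines at the 50 kb limits; regions under 0.25 kb are drawn 0.25 kb wide. The long H3K27ac regions at both starts appear in the 3 genotypes, the small distal ones at IRF4 differ between rows, and the KO H3K4me1 row holds 7 short regions at PRDM1.

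XBP1, a compact gene of 6010 bp, lay inside an acetylated region more than 13 kb long. That region measured 13879, 14610 and 15434 bp in WT, KO and JmjD-dead, and covered the whole gene and an end of CCDC117. Distal acetylation lay mainly upstream, between -29 and -10 kb. JmjD-dead listed this stretch as a single region of 18757 bp at rank 324. In WT its main parts were 10683 bp at rank 749 and 3459 bp at rank 7353, and in KO they were 9578 bp at rank 2599 and 2485 bp at rank 10863. At the other end of CCDC117, 25.5 to 29.0 kb in WT, the region had ranks 1164, 2856 and 1533. At HSCB, a gene for a mitochondrial cochaperone, the ranks were 3781, 7018 and 4122.

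XBP1 was flanked by KDM6A sites and had none at its start in ARP1. KDM6A listed 8 regions in WT and none in KO, and all 8 overlapped an HA region of the tagged line. The best lay 7.8 to 8.7 kb downstream of the start with rank 1168 and −log10 q of 46.7, inside an element of 1718 bp that HA ranked 1545 and KARPAS 5029. The untagged HA list also reached that element, at rank 7081. Upstream, HA ranked the element at -23.4 to -22.3 kb 1359 and the one at -11.8 to -11.1 kb 3315, with KDM6A at 45487 and 21272 in the same places. Neither had a region in the KO KDM6A or the untagged HA list. KDM6A also marked the CCDC117 end at 26.5 to 27.1 kb, at rank 2698. At the XBP1 start the untagged line held the longer HA region, 1962 bp at rank 777, and the tagged line one of 200 bp at rank 39669.

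H3K4me1 in WT gave XBP1 a 14432-bp promoter region at rank 398 and 19 distal regions. KO listed 1 region in the whole window, 326 bp at -23.4 to -23.1 kb.

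POU2AF1 differed from the other loci in the KO library of KDM6A and of H3K4me1. KDM6A listed 3 regions there in WT and 48 in KO, and the KO regions covered 92.1% of the window against 1.13% in WT. H3K4me1 listed 27 regions in WT and 52 in KO, covering 14.1% and 86.7%. The gene lies in a stretch of chromosome 11 that was dense in these 2 libraries. The bin from 111 to 112 Mb held 632 KO KDM6A regions, 316 times the median bin of that list, and 705 KO H3K4me1 regions, 78.3 times the median. In the same bin the WT lists held 7 and 40 regions. The KO H3K27ac list held 24, or 1.33 times its median, and the KO input 5, or 1.67 times its median. The KARPAS KDM6A list held 74, or 6.17 times its median. From 109 to 111 Mb the KO counts per bin were 404 and 410 for KDM6A and 431 and 580 for H3K4me1, and at 113 to 114 Mb they were 0 and 48. The cause of these counts was not tested. KO values of KDM6A and H3K4me1 at POU2AF1 are therefore given apart from those of the other genes, except in the comparison of promoter places.

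**Figure D3:**
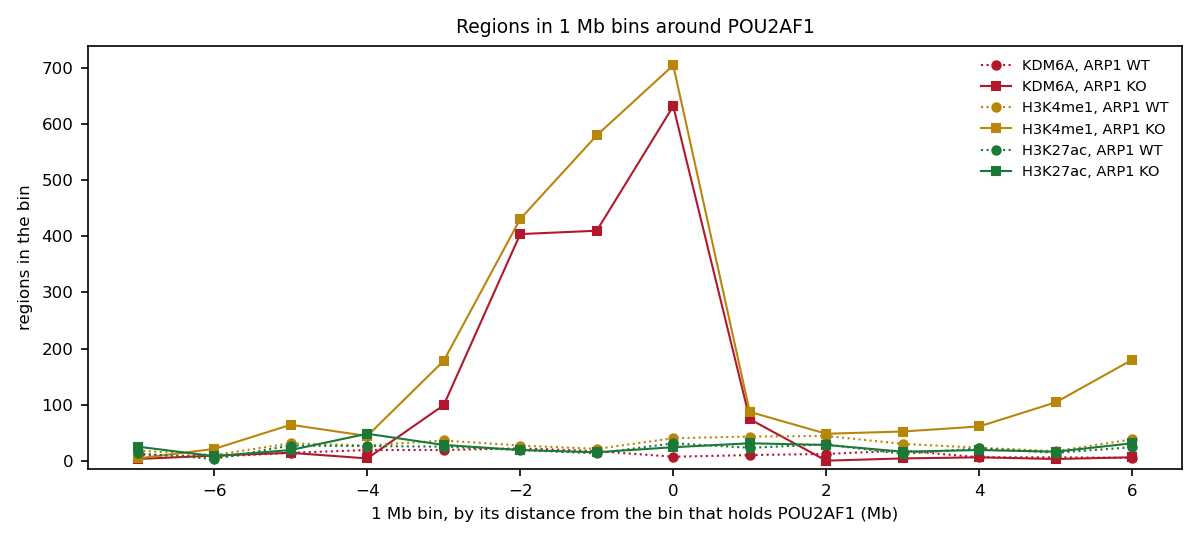
Number of regions in 1 Mb bins around POU2AF1, by the distance of the bin from the one that holds the gene, in the WT (dotted) and KO (solid) lists of KDM6A, H3K4me1 and H3K27ac. The KO KDM6A and KO H3K4me1 lists reach 632 and 705 regions in the bin of the gene, and the other 4 lists stay near the bottom of the axis.

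By its best H3K27ac region POU2AF1 stood lower in each list than the other loci. By the best distal region POU2AF1 stood above IRF4, at ranks 3631, 11368 and 4583 in WT, KO and JmjD-dead against 19969, 18869 and 21917. Its best H3K27ac region was not at a gene end but inside the gene, at -9.3 to -5.8 kb from the end coordinate in WT (distances here follow the genome, so negative values are smaller coordinates). It had 3433 bp and rank 3631 in WT and 3156 bp and rank 4583 in JmjD-dead. In KO the stretch was listed mainly as 2068 bp at rank 11368 and 662 bp at rank 19066. A second element beyond the gene, at 11.8 to 13.9 kb in WT, had ranks 10487 in WT, 24750 in KO and 15400 in the JmjD-dead line. At the end coordinate the pair of regions in WT measured 2294 and 2145 bp, and in KO 2223 and 1958 bp.

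The 3 WT KDM6A regions at POU2AF1 each coincided with 1 of the 3 HA regions of the tagged line, and the untagged HA list had no region in the window. They lay at -8.3 to -7.4 kb (KDM6A rank 2179, HA rank 2625), at -2.8 to -2.4 kb (23245 and 22213) and at 12.3 to 12.8 kb (3178 and 9157). The first and the last fell on the acetylated elements inside and beyond the gene. All 3 also overlapped KO KDM6A regions of the dense stretch.

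**Figure D4:**
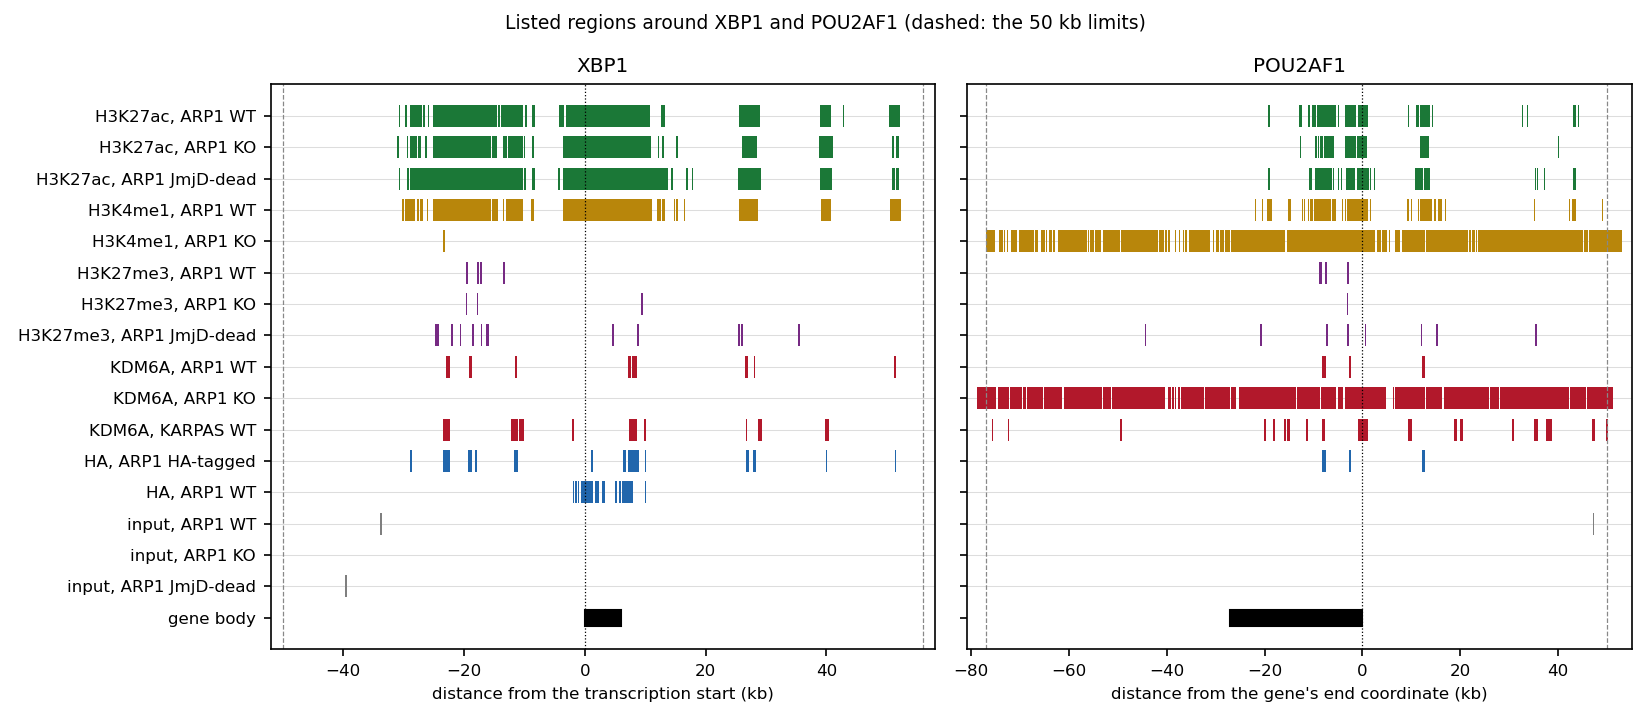
Regions of each of the 16 libraries (rows, coloured by antibody) around XBP1, by distance from the transcription start, and POU2AF1, by distance from its end coordinate, in kb, with the gene body in black and dashed lines at the 50 kb limits; regions under 0.25 kb are drawn 0.25 kb wide. The KO KDM6A and KO H3K4me1 rows fill the POU2AF1 window and hold 0 and 1 regions at XBP1.

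Across the 4 windows the H3K27ac lists held 66 (WT), 51 (KO) and 59 (JmjD-dead) regions. Of the WT regions 28 had no KO region, 42.4% with an exact Clopper-Pearson 95% interval of 30.3 to 55.2 that covers counting error only, against 30.1% of the whole WT list. For JmjD-dead it was 16 of 66, 24.2% (14.5 to 36.4), against 27.7%. The regions without a KO partner were 12 of 20 at IRF4, 1 of 12 at PRDM1, 4 of 17 at XBP1 and 11 of 17 at POU2AF1. All 28 were distal, none was longer than 699 bp and the best had rank 22739, so every WT region of a better rank at these loci had a KO partner. In the other direction, 10 of 51 KO regions (19.6%, against 35.2% of the KO list) and 15 of 59 JmjD-dead regions (25.4%, against 29.1%) had no WT region. Between the 2 altered genotypes, 25 of 59 JmjD-dead regions had no KO region (31.6% of the list) and 10 of 51 KO regions had no JmjD-dead region (35.4%). Such counts compare 1 library with 1 library.

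Acetylated sequence within the windows was also measured in base pairs. A stretch listed as 1 region includes gaps that a split one leaves out, as at XBP1 upstream in JmjD-dead. At IRF4 H3K27ac covered 25106, 23760 and 23425 bp in WT, KO and JmjD-dead. At PRDM1 it covered 78575, 77059 and 79249 bp, and at XBP1 40303, 37870 and 44700 bp. These 3 genes had KO to WT ratios of 0.946, 0.981 and 0.940, below the median of 1.11 over 16584 genes. POU2AF1 went from 15388 bp in WT to 9440 bp in KO, a ratio of 0.613, and to 13762 bp in JmjD-dead, a ratio of 0.894. It was the only one of the 4 under 0.667 in KO, as were 6.55% of genes, and none of the 4 was under 0.667 in JmjD-dead, as were 7.12%. With 1 library each, the spread of these ratios between replicates is unknown.

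**Figure D5:**
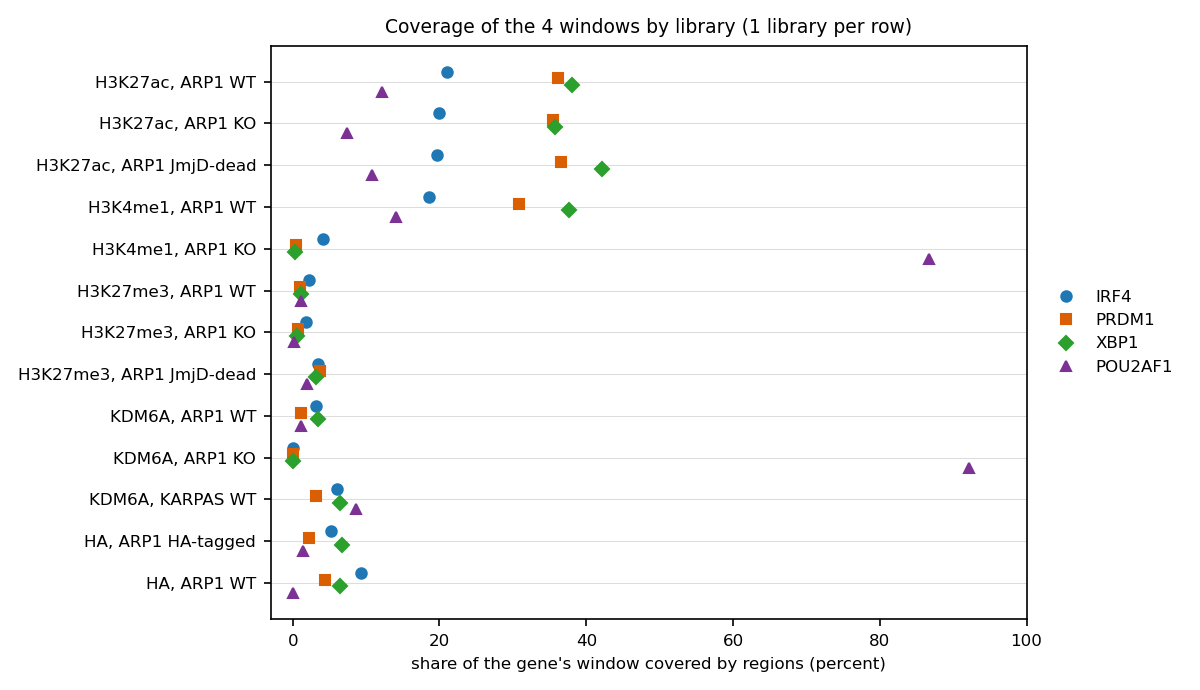
Share of each gene's window (gene body and 50 kb either side) covered by regions, in percent, in each of 13 immunoprecipitation libraries; symbols and colours mark genes and are offset vertically for legibility. The H3K27ac shares of IRF4 and PRDM1 lie close together in the 3 genotypes. Those of XBP1 run from 35.7% (KO) to 42.2% (JmjD-dead), and those of POU2AF1 from 7.43% (KO) to 12.1% (WT). POU2AF1 reaches 86.7% in the KO H3K4me1 list and 92.1% in the KO KDM6A list.

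H3K4me1 regions covered less sequence in KO than in WT at IRF4, PRDM1 and XBP1, and so they did at most genes. Covered sequence went from 22224 to 4860 bp at IRF4, from 66915 to 1114 bp at PRDM1 and from 39920 to 326 bp at XBP1. The KO to WT ratios of 0.219, 0.0166 and 0.00817 compare with a median of 0.130 over 16888 genes, 88.6% of which were under 0.667. At POU2AF1 it went from 17860 to 110166 bp, a ratio of 6.17, where 4.25% of genes were above 1.5. H3K4me1 marked all 4 promoters in WT (64.1% of all genes) and those of IRF4 and POU2AF1 in KO (34.7%). The promoters of PRDM1 and XBP1 were therefore marked in WT and not in KO, 2 of 4 genes, as were 54.1% of the 12808 genes marked in WT. At the 3 genes outside the dense stretch 73 of 85 WT regions had no KO region (85.9%, 76.6 to 92.5, against 75.3% of the list), and with POU2AF1 73 of 112 (65.2%, 55.6 to 73.9). Of 76 KO regions 48 had no WT region (69.2% of the KO list), 45 of them in the POU2AF1 window, and 50 of 76 had no KO H3K27ac region (72.8% of the list). Of those 50, 48 were in the POU2AF1 window, and at the other 3 genes it was 2 of 24 (8.33%). In WT 35 of 112 had no H3K27ac region (40.2%), 16 of them at IRF4, 14 at POU2AF1, 5 at XBP1 and 0 at PRDM1. The KO library held 25570686 fragments and the WT library 34023091. The part of depth in these ratios was not tested.

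KDM6A of WT marked the promoters of IRF4 and POU2AF1, 2 of 4 genes against 7.56% of all, and the KO list that of POU2AF1 alone (3.37%). HA marked IRF4, PRDM1 and XBP1 in the untagged line (17.2%) and IRF4, XBP1 and POU2AF1 in the tagged line (18.1%). Within 50 kb, KDM6A regions of WT numbered 24 in the 4 windows, 8 at IRF4, 5 at PRDM1, 8 at XBP1 and 3 at POU2AF1. Of these 20 had no KO region, 83.3% (62.6 to 95.3) against 69.4% of the list, and without POU2AF1 20 of 21. HA regions numbered 53 in the untagged line (22 at IRF4, 21 at PRDM1, 10 at XBP1 and 0 at POU2AF1) and 35 in the tagged line (11, 8, 13 and 3). Of the tagged-line regions 23 had no untagged-line region, 65.7% (47.8 to 80.9) against 51.8% of that list. The antibodies met at these loci. Of the 24 KDM6A regions 1 had no tagged-line HA region, against 64.6% of the whole KDM6A list, and the same one had no WT H3K27ac region, against 76.0%. Of the 35 HA regions 4 had no WT H3K27ac region, against 48.5% of that list. The lone KDM6A region lay at -138.4 to -138.2 kb from the PRDM1 start at rank 59710. WT H3K27ac covered a larger share of the window than at 97.2% (IRF4), 99.6% (PRDM1), 99.7% (XBP1) and 88.9% (POU2AF1) of genes. Genes of similar acetylation were not compared, so these overlaps are not shown to be particular to the 4 loci. A WT-only KDM6A region was found within 50 kb of 3 of the 4 genes, as of 60.1% of all genes, and a tagged-only HA region near all 4, as of 63.2%.

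KDM6A and tagged-line HA regions merged into 36 elements, 20 of which had both antibodies, 6 at IRF4, 4 at PRDM1, 7 at XBP1 and 3 at POU2AF1. Of the 20, 18 were distal. H3K27ac was listed at 19 of them in all 3 genotypes, the exception being IRF4 at 41.2 to 41.6 kb, which had no KO region. Neither background list held 10 of the 20, namely 3 at IRF4, 1 at PRDM1 and 6 at XBP1. The KARPAS list held 11 of the 20. A WT KDM6A region on a tagged-line HA region lay within 50 kb of all 4 genes, as of 42.2% of all genes. With both antibodies free of their background lists, such a region lay near IRF4, PRDM1 and XBP1, as near 34.4% of genes. Of the 24 KDM6A regions 14 had no untagged-line HA region, against 45.0% of the list.

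In KARPAS KDM6A had 60 regions in the windows, 17 at IRF4, 14 at PRDM1, 9 at XBP1 and 20 at POU2AF1. It marked 3 of the 4 promoters (22.1% of all genes), PRDM1 at rank 10646, XBP1 at rank 26042 and POU2AF1. The best was 823 bp at -10.9 to -10.1 kb upstream of XBP1, at rank 266 with −log10 q of 152, and its neighbour at -12.2 to -11.1 kb had rank 1565 and overlapped the ARP1 site. At POU2AF1 a 1317-bp region at -0.2 to 1.1 kb from the end coordinate had rank 1601, and ARP1 WT had no KDM6A region at that place, its own promoter region lying at -2.8 to -2.4 kb. IRF4 had no promoter region, and the best there was 662 bp at -49.9 to -49.2 kb at rank 4469, an element that ARP1 KDM6A ranked 26020. Of the 60 regions 49 had no ARP1 WT region, 81.7% (69.6 to 90.5) against 66.3% of the KARPAS list, and POU2AF1 had 19 of 20. From the ARP1 side 12 of 24 regions had no KARPAS region, against 80.3% of the list. Of the KARPAS regions 29 of 60 had no ARP1 WT H3K27ac region, against 69.8%, and acetylation of KARPAS itself was not analysed here. KARPAS had no background library here, and its library held 37389280 tags against 11898708 in ARP1 WT.

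H3K27me3 regions at the 4 loci were short and, but for 1, distal, and in WT they covered more sequence than at most genes. In WT they covered 2.26% of the IRF4 window, 0.986% at PRDM1, 1.07% at XBP1 and 1.11% at POU2AF1. These shares were above those of 96.9%, 89.1%, 90.0% and 90.4% of all genes, but only 5457 of 19970 genes held 500 bp or more in WT. The best WT region had a −log10 q of 20.1 at IRF4, 4.88 at PRDM1, 4.88 at XBP1 and 6.19 at POU2AF1. Of the 19 WT regions 3 reached a −log10 q of 5. The 1 Mb bin of IRF4 held 47 WT regions, 11.8 times the median bin. The lists held 19 (WT), 12 (KO) and 48 (JmjD-dead) regions, and 1 of these 79 was a promoter region, 252 bp at the end coordinate of POU2AF1 in JmjD-dead at rank 26523. Over all genes, 11.5% (WT), 10.1% (KO) and 20.9% (JmjD-dead) of promoters held a region. By gene there were 5, 4 and 12 regions at IRF4 in WT, KO and JmjD-dead, 7, 4 and 17 at PRDM1, 4, 3 and 11 at XBP1, and 3, 1 and 8 at POU2AF1. All 19 WT regions overlapped WT H3K27ac, whereas 35.6% of the WT H3K27me3 list did not, and genes of similar acetylation were not compared. In KO 1 of 12 had no H3K27ac region of the same genotype (29.2% of the list), and in JmjD-dead 11 of 48 (49.4%). Of the 19 WT regions 11 had no KO region (74.8% of the list) and 9 no JmjD-dead region (52.4%). After the IRF4 element near -20 kb, the best WT region was also at IRF4, 691 bp inside the gene at 4.6 to 5.3 kb with rank 1319. Covered sequence in JmjD-dead was 1.54 times WT at IRF4, 3.81 times at PRDM1, 2.97 times at XBP1 and 1.70 times at POU2AF1. Ratios above 1.5 were found at all 4 genes and at 58.9% of 5457 genes, and under 0.667 at none of the 4 and 14.3%. The JmjD-dead library held 10449019 fragments and the KO library 6595820, against 5026016 in WT. In KO the ratios were 0.790, 0.685, 0.565 and 0.157, with a median of 0.487 over all genes, and 2 of the 4 were under 0.667 against 60.5% of genes.

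Other genes of the same programme were read by their promoter state, against the 60.6% (WT), 62.4% (KO) and 60.5% (JmjD-dead) of all genes with an H3K27ac promoter region. Among 18 transcription factors that work with or next to the 4 genes, 17 had an H3K27ac promoter region in WT and 18 in KO, the added one being POU2F2, which encodes OCT2, at rank 59894. MEF2D at ranks 78, 65 and 78, TCF3 at 186, 318 and 188 and IKZF3 at 200, 311 and 187 in WT, KO and JmjD-dead were within the range of PRDM1 and XBP1 or close to it. Of the 18 secretory and surface genes 17 were marked in each genotype, MZB1 at ranks 222, 201 and 238. Other genes of that list differed more in rank, in either direction. CD38 had ranks 3725, 11673 and 5498 in WT, KO and JmjD-dead, and EDEM1 4145, 1963 and 9967. Of 18 B cell genes, which plasma cells turn down, 7 were marked in WT, 8 in KO and 6 in the JmjD-dead line. Those 6 were marked in all 3 genotypes, in WT from MYBL1 at rank 3739 to SWAP70 at rank 33053, with BCL6 at rank 5693. SPI1, a factor of the B cell and myeloid lineages, was marked in KO only of the 3, at rank 43138, and PAX5, the B cell identity factor, was marked in WT (rank 49355) and KO (rank 64627) and not in JmjD-dead. Of all genes marked in WT 1.73% were unmarked in KO and 2.58% in JmjD-dead, and of unmarked genes 7.15% were marked in KO and 3.66% in JmjD-dead. Among the other cell types COL1A1 was marked only in WT and KRT18 only in KO (rank 30546) and JmjD-dead (rank 61617).

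H3K4me1 promoter regions present in WT were missing in KO at 6 of 18 partner factors, MEF2C, NFKB1, ZBTB20 and ZNF215 among them, at 9 of 18 secretory and surface genes, among them TNFRSF17, CD38, JCHAIN and DNAJB9, and at 7 of 10 marked B cell genes, among them PAX5, BACH2, SPI1 and EBF1. Over all genes marked in WT the share missing in KO was 54.1%. FCER2 and IRF8 were marked in KO only, 2 of 8 unmarked B cell genes against 14.6% of unmarked genes. Of 16 partner factors without an H3K27me3 promoter region in WT, 5 had one in KO, among them POU2F2, E2F1, TCF3 and RELB (6.6% of unmarked genes). In JmjD-dead 5 of the 16 had one, among them IKZF1, MEF2C, E2F1 and RELB (15.4%). The ranks ran from 2024 (POU2F2) to 9421 (E2F1) of 11865 in KO, and from 9698 (E2F1) to 36742 (IKZF1) of 37236 in JmjD-dead. Of 4 secretory and surface genes marked by H3K27me3 in WT, SDC1, SLAMF7 and HSPA5 were unmarked in KO (62.8% of marked genes), and SLAMF7 and HSPA5 in JmjD-dead (36.2%). FKBP11, DERL3 and EDEM1 of that list were marked in JmjD-dead and not in WT, 3 of 14 against 15.4%. Of 3 B cell genes marked in WT, SWAP70 and LMO2 were unmarked in KO, and CIITA, SWAP70 and LMO2 in JmjD-dead.

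The place of the best promoter region over the 13 libraries was also compared with that of every other gene, as the mean absolute difference in percentage points. PRDM1 and XBP1 differed by 4.63 points from each other. The genes closest to PRDM1 were COMMD3, COMMD3-BMI1 and DDAH2, at 1.25 points each (median gene 28.5), of which COMMD3 and COMMD3-BMI1 share a start. SRSF5, INTS6 and PPIA came closest to XBP1, at 1.71 to 2.05 points (median 28.1). IRF4 was closest to HMGB1, SIRT4 and PPP1R2, at 8.11 to 8.83 points (median 34.8). For POU2AF1 they were MIA, RAB4B and ZBP1, at 9.33 to 9.82 points (median 40.7), and the other 3 factors lay 36.7 to 41.0 points away. The POU2AF1 distances include its KO KDM6A and KO H3K4me1 places, 94.64 and 99.47, which lie in the dense stretch. They also rest on both gene ends instead of a start, and are not given without these. Libraries of 1 antibody share their target, so the 13 places are not independent.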

How the data were processed

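The data were deposited lists of enriched regions from 16 human libraries, 1 per group, grouped by titles, genotype and antibody labels; 4 mouse libraries were not used here. The submitters' processing notes name Bowtie2, Trimmomatic, MultiQC, FastQC, MACS2 2.1.2 and the build GRCh38. Regions were called in each library by itself at a q-value of 0.05, without a control sample and with the local lambda switched off, per the file headers, which give MACS 2.2.7.1 for ARP1 input, H3K27ac and H3K27me3 and 2.1.1.20160309 for the others. Without a control, gains of DNA copy number can give regions. HA and KDM6A used tags and the others fragments. Each deposited row gives the authors' pileup signal, fold enrichment (ratio), −log10 p-value and −log10 q-value, which served only to rank or filter within a list.

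Summit rows of 1 region were merged and regions ranked by −log10 q, then fold. Only numbered chromosomes and X were kept. RefSeq GRCh38.p14 gave genes and, for 15811 of 19970 protein-coding genes, transcription starts; both gene ends were used for the other 4159, POU2AF1 among them. Promoter regions lay within 2.5 kb of a start or end, and the same count is given over all genes. Covered-sequence ratios were limited to genes with a minimum of 500 bp under WT regions. Overlap was at least 1 bp, and 95% intervals are exact Clopper-Pearson and cover counting error only.

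The members and gene lists were chosen with earlier results of these data known. Named besides the members were the 3 genes closest in promoter place, genes whose end lies within 2.5 kb of a member region, and up to 4 list genes per comparison whose promoter state differed. SDC1, DERL3, CD27, MEF2D, TCF3, IKZF3, MZB1, MYBL1, BCL6, CD3E and PECAM1 were added after their values were seen. So were the H3K27ac ranks of CD38, EDEM1 and SWAP70.

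The alternatives were a stricter −log10 q (5 or more), lists cut to equal length, removal of regions on ARP1 input, promoter windows of 1 and 10 kb, windows of 25 and 100 kb and 50% overlap. Leaving out the POU2AF1 window was added after seeing the data. The work used matplotlib 3.10.9, scipy 1.17.1, pandas 2.3.3 and numpy 2.4.6 in Python 3.11.15. The ranking, overlap and start functions were tested on simulated data and on the reference.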

Additional observations from a re-analysis of the deposited data

How the results depend on the processing

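No paired analysis was possible because each group holds 1 library and no result comes from a test. The 8 results were recomputed under 47 alternatives, and 40 stayed within 1.5 times a count or within the counting interval of a share. That score does not follow the share of the whole list. WT H3K27ac regions without a JmjD-dead region were 24.2% against 27.7% of the list. With −log10 q of at least 5 they were 25.6% against 15.8%, so the order reversed. The count of WT H3K27me3 regions went from 19 to 3 with −log10 q of at least 5, to 12 with equal list lengths, to 12 within 25 kb and to 53 within 100 kb. KARPAS KDM6A regions went from 60 to 113 within 100 kb. WT H3K27ac regions without a KO region went from 42.4% to 59.1% when 50% of the region had to overlap, and the whole list from 30.1% to 39.0%. Without the POU2AF1 window, WT H3K4me1 regions without a KO region went from 65.2% to 85.9%. The H3K27ac promoter regions, 12 of 12 gene and genotype pairs, fell to 8 of 12 without regions that overlap an input region, since the broad regions at IRF4 in all 3 genotypes and at PRDM1 in WT overlap short input regions. The cause of the other shifts was not tested. The inputs held at most 724630 fragments, which limits how much background they can show, and no replicate bounds any value.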
